A study of Mus musculus with 96 samples.

Results

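Gas5, Snhg1, Snhg5, Snhg8, Snhg12 and Zfas1 are small nucleolar RNA (snoRNA) host RNAs, chosen by name as hosts known to be degraded when they are translated. All 6 were found in the count table, among 54150 genes. The table covers 96 cultures of C2C12, a mouse myoblast line that fuses into myotubes when serum is lowered, in 35 conditions of 2 or 3 cultures. Myoblasts carried a doxycycline-inducible transgene from a lentivirus, induced with 300 ng/ml doxycycline: luciferase as the control, LbNOX (a bacterial enzyme that oxidises NADH in the cytosol), mitoLbNOX (the same enzyme sent to the mitochondrial matrix) or NDI1 (a yeast NADH dehydrogenase that piericidin does not block). These lines were treated for 10 h with DMSO, piericidin (complex I inhibitor), antimycin (complex III inhibitor) or oligomycin (ATP synthase inhibitor), which gave 37 samples in 13 conditions. Of the possible pairs, oligomycin was given to the luciferase and LbNOX lines, antimycin to those and the mitoLbNOX line, and piericidin to every line. A further 8 myoblast samples, luciferase or LbNOX, had 48 h of chloramphenicol, an inhibitor of mitochondrial protein synthesis, or DMSO, all in medium with uridine. Cells without a transgene and without doxycycline were treated after 24 h in low serum with DMSO, piericidin or oligomycin (9 samples), or as myotubes after 4 days in low serum (27 samples in 9 conditions). The myotube treatments were DMSO, piericidin, antimycin, oligomycin, the uncoupler BAM15, oligomycin with BAM15, oligomycin with piericidin, and DMSO or oligomycin in hypoxia. Another 15 myotube samples had received an adenovirus with GFP or LbNOX before DMSO, piericidin or oligomycin. All treatments of low-serum cells and myotubes lasted 10 h, and the authors began hypoxia the night before. Each myoblast transgene was in a stable population of transduced cells, so that cell stage cannot be told apart from transgene and doxycycline wherever myoblasts and myotubes are compared.

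A snoRNA host gene is transcribed for what its introns hold. Splicing releases the introns, which are trimmed to snoRNAs that guide the chemical modification of ribosomal and other RNAs, while the joined exons leave the nucleus. In the non-coding hosts these exons have only short reading frames. Ribosomes that read them stop early and the RNA is then removed by nonsense-mediated decay (NMD), the surveillance pathway for RNAs with early stop codons, so that general inhibitors of translation are known to raise such hosts. Several hosts also start with a terminal oligopyrimidine (TOP) tract, a C followed by a run of pyrimidines that is shared with mRNAs for ribosomal proteins and elongation factors. Mitochondrial inhibitors can switch on the integrated stress response, in which phosphorylated eIF2α lowers initiation while the transcription factor ATF4 is made. The question put here to the 6 RNAs was in which of the 35 conditions they rose or fell. Neither translation nor RNA decay was measured, and their part in any difference was not tested.

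In the mouse genome (GRCm38), Gas5 lies at chr1:161034422-161038539 on the plus strand and holds 10 entries annotated as snoRNA genes at 9 separate places, 1 of them named Mir5117 and 2 of them overlapping entries of Snord80. Snhg1, at chr19:8723475-8726443 on the plus strand, holds 8. Snhg12, at chr4:132308623-132311024 on the plus strand, holds 5 entries at 4 places, with Snora16a entered 2 times. Zfas1, at chr2:167062934-167065862 on the plus strand, holds 3. Snhg5, at chr9:88521050-88522929 on the minus strand, holds 2, and Snhg8, at chr3:123507552-123508404 on the minus strand, holds 1. The polyadenylated RNA libraries scarcely sampled the snoRNAs themselves. The 10 snoRNA rows inside Gas5 summed to 983 estimated counts over all 96 samples against 121020 for Gas5, and those inside Snhg12 summed to 73 against 23207. No snoRNA named on the list of intronic snoRNAs passed the filter on low counts. The values below are gene-level counts, and spliced and unspliced host RNA were not told apart.

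The sequences around the annotated starts are shown because the starts are the part of the hosts that is shared with TOP mRNAs. RefSeq (GRCm38.p6) gave 7 start sites for the 6 genes. For each gene a window of 75 bases is printed, from 50 bases before the start to 25 bases after it, with the second of the Gas5 starts chosen after the sequences had been seen. The window of the first Gas5 start held no tract and none of the words searched. Capitals mark a TATA-like word (the word TATAA, the word TATATA or the word TATTTA, starting 40 to 20 bases before the start, on the transcribed strand) and a pyrimidine tract (C followed by at least 4 pyrimidines, starting within 10 bases of the annotated start).
Gas5, chr1:161035116-161035190, plus strand: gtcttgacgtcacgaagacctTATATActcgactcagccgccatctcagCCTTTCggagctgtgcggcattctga
Snhg1, chr19:8723437-8723511, plus strand: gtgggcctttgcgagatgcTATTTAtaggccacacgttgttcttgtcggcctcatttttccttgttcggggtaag
Snhg5, chr9:88522873-88522947, minus strand: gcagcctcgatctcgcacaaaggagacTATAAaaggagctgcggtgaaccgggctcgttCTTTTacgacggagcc
Snhg8, chr3:123508312-123508386, minus strand: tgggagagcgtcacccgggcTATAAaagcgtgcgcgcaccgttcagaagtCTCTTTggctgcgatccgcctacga
Snhg12, chr4:132308628-132308702, plus strand: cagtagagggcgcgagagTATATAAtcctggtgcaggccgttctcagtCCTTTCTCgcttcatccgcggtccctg
Zfas1, chr2:167062884-167062958, plus strand: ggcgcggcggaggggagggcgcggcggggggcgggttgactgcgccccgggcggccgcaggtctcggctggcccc
The pyrimidine tract was present in 4 of the 6 genes, Gas5, Snhg5, Snhg8 and Snhg12, and in 33.3% of 27025 mouse genes, counted in the same way over any of a gene's windows (29.7% of the 32851 windows). It was longest in Snhg12, with 8 bases, and began at the annotated start itself in Snhg8. This rule was widened after the sequences had been seen. The narrower rule tried first, a tract of at least 5 bases that starts within 5 bases of the start with a C that no pyrimidine precedes, was met by 1 of the 6, Gas5, by 14.8% of windows and by 17.2% of genes. The tracts of Snhg8 and Snhg12 are preceded by a T and so did not meet it. A TATA-like word was seen in 5 genes: TATAA in Snhg5, Snhg8 and Snhg12, TATATA in Gas5 and again in Snhg12 (where both words overlap), and TATTTA in Snhg1. These words were found at that distance in 3.51%, 0.944% and 0.618% of all windows and in 4.21%, 1.14% and 0.729% of genes. The share of genes with any of these words was not counted. TATTTA was added after the Snhg1 sequence had been read. In the narrower window tried first, TATAA was found in 2 of the 6, Snhg8 and Snhg12, in 3.31% of windows and in 3.99% of genes. Zfas1 had neither tract nor word in this window, which is rich in G and C. Over the whole 300-base windows and on both strands, the cyclic AMP response element TGACGTCA was found in Gas5, in 1.79% of windows and in 2.03% of genes. The E-box CACGTG (7.15% of windows) and the ATF4-type words TGATGCAA (0.895%) and ATTTCATC (0.834%) were found in none of the 6.

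Totals were 6458295 to 15366745 estimated counts a sample. Levels are given below as counts relative to library size (CPM) after TMM scaling over all samples. In single samples Gas5 had 386 to 4459 counts, Zfas1 169 to 3133, Snhg1 92 to 2212, Snhg5 62 to 1829, Snhg8 62 to 438 and Snhg12 40 to 1476, so that Snhg8 and low values of Snhg12 were the least precise. Each transgene was detected in every sample that carried it and had 0 counts elsewhere, with eGFP found in all 15 adenovirus samples, those with LbNOX included. Muscle differentiation markers (Myog, Ckm, Acta1, Myh3, Tnnt3) summed to 9.11 to 91.7 CPM in myoblasts, 9923 to 10651 CPM after 24 h in low serum and 9322 to 13287 CPM in myotubes. Markers of blood, endothelial, epithelial, fat and fibroblast-like cells together did not exceed 11.2 CPM in any sample. A gene was called higher or lower at an adjusted p under 0.05 in edgeR's quasi-likelihood test, Benjamini-Hochberg adjusted across the whole set of tested genes.

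In luciferase myoblasts all 6 host RNAs rose with each of the 3 inhibitors of oxidative phosphorylation. Under piericidin 30.9% of all genes tested were called higher, under antimycin 32.1% and under oligomycin 24.5%. The median log2 fold change of the 6 was 2.43 with piericidin, 2.18 with antimycin and 1.73 with oligomycin, while the median of all genes was -0.01 with oligomycin and closer to 0 with the others. Snhg12 moved most with every inhibitor, by 7.51-fold, 12.6-fold and 5.95-fold, and Snhg8 moved least, by 1.73-fold, 2.09-fold and 2.22-fold.

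**Figure D1:**
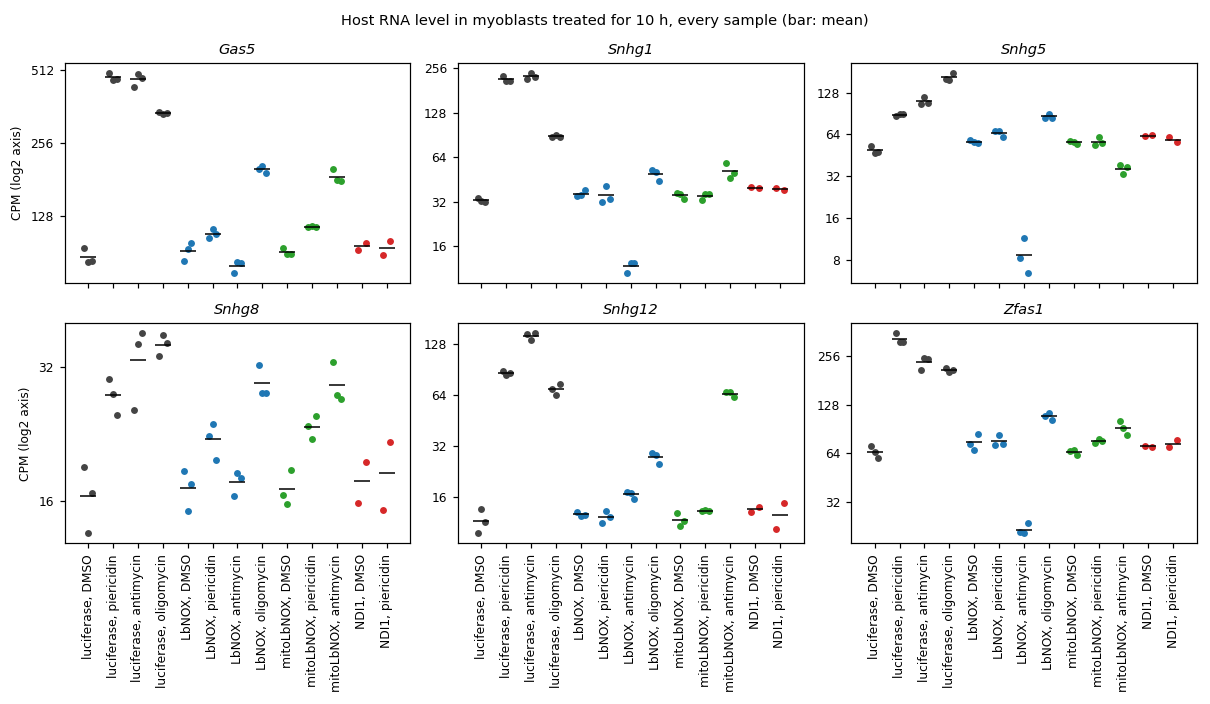
Level of each host RNA (CPM, log2 axis) in every myoblast sample treated for 10 h, by line and treatment, with a bar at the mean of each condition. All inhibitor-treated luciferase samples lie above the luciferase DMSO samples in each panel, and the LbNOX antimycin samples are the lowest of the plot for Snhg1, Snhg5 and Zfas1.

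Gas5, the host of the largest number of snoRNAs here, stood at 94.5, 83.3 and 84.2 CPM in luciferase cells with DMSO. It stood at 497, 466 and 470 CPM with piericidin, at 435, 493 and 476 CPM with antimycin, and at 344, 336 and 339 CPM with oligomycin. The lowest treated sample was thus far above the highest control, and the log2 fold changes were 2.49 ± 0.07, 2.47 ± 0.07 and 1.97 ± 0.07 (± SE, n = 3 against 3; adjusted p = 6.9e-24, 8.1e-24 and 3.0e-21 by edgeR).

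Snhg1, the host of several box C/D snoRNAs, was at 33.8, 32.6 and 31.9 CPM in the control samples. It reached 227, 211 and 211 CPM with piericidin and 218, 238 and 225 CPM with antimycin, but only 88.0, 90.9 and 87.1 CPM with oligomycin. Every group of treated samples was apart from the control, and the oligomycin samples were apart from those of both electron transport inhibitors. The log2 fold changes were 2.76 ± 0.08, 2.83 ± 0.08 and 1.45 ± 0.08.

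Snhg12, which hosts Snora44 and Snora61 among others, was at 9.82, 13.7 and 11.4 CPM with DMSO. With piericidin it was at 88.0, 83.6 and 86.1 CPM, with antimycin at 145, 135 and 147 CPM, and with oligomycin at 69.6, 64.1 and 73.8 CPM. None of these 4 groups overlapped another. The antimycin value was a log2 fold change of 3.65 ± 0.10 (adjusted p = 3.8e-23), the largest of any of the 6 RNAs in any treatment against its vehicle.

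Zfas1, the host of the Snord12 family, was at 70.4, 64.6 and 59.9 CPM with DMSO. It was highest with piericidin, at 355, 314 and 314 CPM, and lower with antimycin, at 210, 251 and 244 CPM, and oligomycin, at 215, 203 and 210 CPM. The antimycin and oligomycin samples overlapped, and the other groups did not. The log2 fold changes were 2.37 ± 0.08, 1.90 ± 0.08 and 1.70 ± 0.08.

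Snhg5, the host of Snord50a and Snord50b, kept the opposite order. It was at 52.6, 47.2 and 48.0 CPM with DMSO, 86.5, 89.8 and 89.4 CPM with piericidin, 107, 118 and 108 CPM with antimycin, and 160, 158 and 177 CPM with oligomycin. No group of Snhg5 overlapped another, with log2 fold changes of 0.88 ± 0.09, 1.22 ± 0.09 and 1.76 ± 0.09. Snhg8, the host of Snora24, was at 19.1, 13.5 and 16.7 CPM with DMSO and rose by 0.79 ± 0.14, 1.07 ± 0.14 and 1.15 ± 0.14 on the log2 scale. Its antimycin samples overlapped those of both other inhibitors, while the piericidin samples lay below the oligomycin samples, with 30.2, 27.9 and 25 CPM for piericidin, 25.6, 36.1 and 38.2 CPM for antimycin and 34.0, 37.9 and 36.2 CPM for oligomycin.

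The order of the inhibitors was tested directly between the treated luciferase samples. With piericidin against oligomycin, Snhg1, Zfas1, Gas5 and Snhg12 were called higher (20% of all genes were) and Snhg5 and Snhg8 were called lower (19.2% of genes). The log2 differences ran from 1.31 ± 0.08 for Snhg1 to -0.88 ± 0.09 for Snhg5. For Snhg8 the difference of -0.36 ± 0.14 just passed (adjusted p = 0.036), and it was lost without the count filter and without every replicate 2 or every replicate 3, which left 1 RNA lower. With antimycin against oligomycin, 4 RNAs were higher, Snhg1, Snhg12, Gas5 and Zfas1 (26.1% of genes), and Snhg5 was lower, by -0.54 ± 0.09 on the log2 scale (23.9% of genes). DESeq2 did not call Zfas1 there (adjusted p = 0.056). With antimycin against piericidin, Snhg12 and Snhg5 were higher (19.3% of genes), Zfas1 was lower (17.9% of genes), and Gas5, Snhg1 and Snhg8 were not called, with log2 differences of -0.02 ± 0.06, 0.08 ± 0.07 and 0.27 ± 0.14.

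In the lines with an NADH-oxidising enzyme the piericidin response was small. In LbNOX myoblasts piericidin raised 1 of the 6 RNAs, Gas5 (5.01% of genes were called higher), which went from 83.6, 94.2 and 99.8 CPM to 105, 114 and 108 CPM, a log2 fold change of 0.26 ± 0.06. DESeq2 called 2 of the 6, and none was called with only the 2 groups in the fit or without every replicate 2. In mitoLbNOX myoblasts 3 were called higher, Gas5, Snhg8 and Zfas1 (6.37% of genes), with log2 fold changes of 0.36 ± 0.06, 0.49 ± 0.14 and 0.25 ± 0.08, and 1 was called when any replicate number was left out. In NDI1 myoblasts, where piericidin-resistant electron entry was supplied, none of the 6 was called higher by edgeR (0.00835% of genes), none had an unadjusted p under 0.05 and none was called by DESeq2. Gas5 was at 93.2 and 99.5 CPM with DMSO and at 88.3 and 102 CPM with piericidin in that line, and Snhg1 was at 40.2 and 39.5 CPM against 39.6 and 38.5 CPM.

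The difference of the piericidin response from that of luciferase cells was tested as an interaction. The response was smaller in LbNOX cells for 5 of 6 RNAs (22% of genes were called smaller), in mitoLbNOX cells for 5 (21.4% of genes) and in NDI1 cells for all 6 (21.5% of genes). Snhg12 gave log2 differences in response of -2.93 ± 0.15, -2.72 ± 0.15 and -2.99 ± 0.17. Snhg8, which had the smallest response to lose, differed by -0.40 ± 0.20 in LbNOX cells (adjusted p = 0.11), -0.31 ± 0.20 in mitoLbNOX cells (adjusted p = 0.23) and -0.70 ± 0.22 in NDI1 cells (adjusted p = 0.012). With DMSO, the log2 differences from luciferase cells ran from 0.06 to 0.21 in LbNOX cells and from 0.00 to 0.19 in mitoLbNOX cells, at adjusted p of 0.32 or more. In DMSO, Snhg5 was called higher in NDI1 than in luciferase cells, at 61.9 and 63.1 CPM (log2 difference 0.34 ± 0.10, adjusted p = 0.048, with 2.74% of genes higher). The call was lost when the replicate number entered as a block, when only the 2 groups were fitted and without every replicate 3. Leaving out replicate 1 or 2 leaves 1 NDI1 sample, which cannot test the call.

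**Figure D2:**
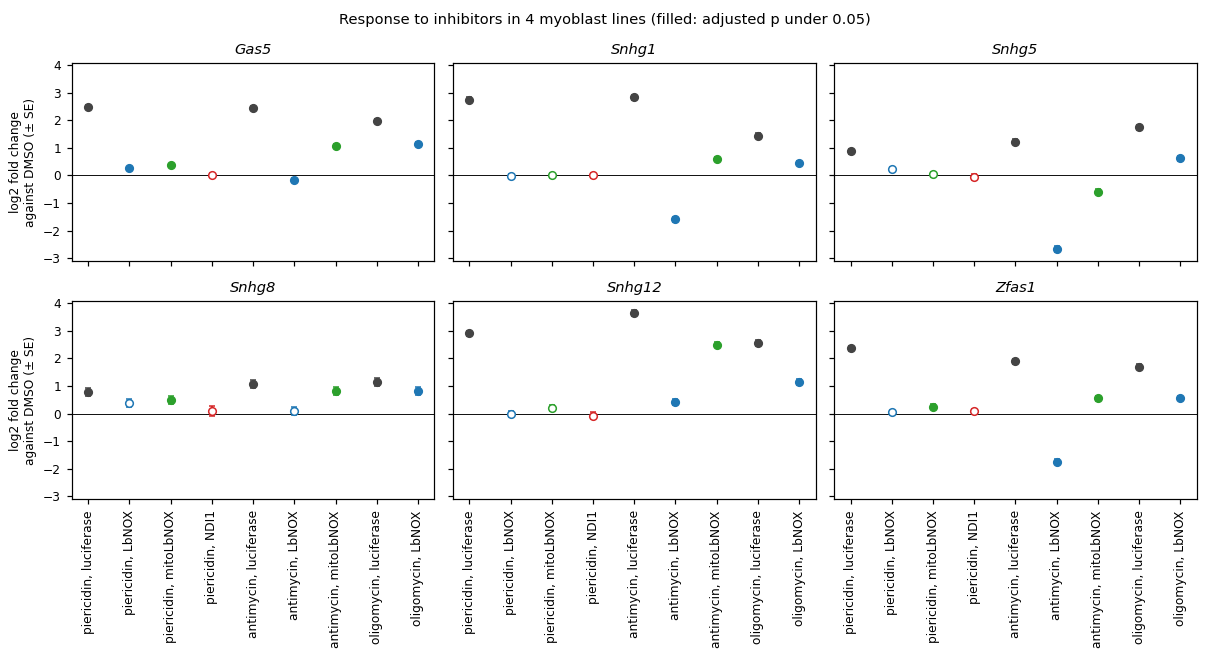
Log2 fold change of each host RNA against DMSO of the same line (vertical axis, ± SE), for piericidin, antimycin and oligomycin in the luciferase, LbNOX, mitoLbNOX and NDI1 lines; filled points passed an adjusted p of 0.05. The luciferase points lie above 0 in every panel, and antimycin in LbNOX cells gives points below 0 for Snhg1, Snhg5, Zfas1 and, slightly, Gas5.

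Antimycin split the 6 RNAs in the LbNOX line. Snhg5, Zfas1, Snhg1 and Gas5 fell (22.9% of genes were called lower), Snhg12 rose (23.3% of genes were called higher) and Snhg8 was not called. Snhg5 went from 58.6, 56.9 and 55.4 CPM with DMSO to 8.18, 11.5 and 6.39 CPM with antimycin, its lowest level in any condition. Zfas1 went from 73.1, 66.7 and 83.6 CPM to 20.7, 20.3 and 23.4 CPM, and Snhg1 from 34.9, 35.4 and 38.4 CPM to 10.5, 12.3 and 12.4 CPM. For these 3 RNAs the samples with antimycin were all far below those with DMSO, with log2 fold changes of -2.68 ± 0.11, -1.75 ± 0.09 and -1.59 ± 0.09. Gas5 fell slightly, from 83.6, 94.2 and 99.8 CPM to 74.5, 82.8 and 82.5 CPM (-0.17 ± 0.07, adjusted p = 0.029), groups that are close but do not overlap. Snhg12 was at 13.1, 12.5 and 12.6 CPM with DMSO and at 17.3, 17.1 and 15.6 CPM with antimycin (0.43 ± 0.11), and Snhg8 at 18.7, 15.2 and 17.4 CPM against 16.5, 18.5 and 18.0 CPM (0.09 ± 0.14).

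Compared with luciferase cells, the antimycin response in LbNOX cells was lower for all 6 RNAs (26.8% of genes). The log2 difference in response was -4.43 ± 0.12 for Snhg1, -3.90 ± 0.14 for Snhg5, -3.65 ± 0.12 for Zfas1, -3.22 ± 0.15 for Snhg12, -2.64 ± 0.09 for Gas5 and -0.98 ± 0.20 for Snhg8. Targets of the tumour suppressor p53 moved with these samples: 6 of 7 listed targets were higher with antimycin in LbNOX cells and none was lower, beside 23.3% and 22.9% of all genes, with Trp53inp1 up by 2.62 ± 0.26 and Cdkn1a, an inhibitor of cyclin-dependent kinases, by 1.89 ± 0.05 on the log2 scale. In luciferase cells 3 of these 7 were higher and 2 lower with antimycin, beside 32.1% and 31.1% of all genes, and no test of the difference between the lines was made for this list. All 5 proliferation markers (Mki67, Top2a, Ccnb1, Cdk1, Ccna2) were lower with antimycin in both lines, beside 31.1% of all genes in luciferase cells and 22.9% in LbNOX cells. The part of either list in the fall of the host RNAs was not tested.

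The matrix-targeted enzyme gave a pattern between these. In mitoLbNOX cells antimycin raised 5 RNAs (24.8% of genes were called higher) and lowered Snhg5 (22.9% of genes were called lower). Snhg12 went from 13, 10.8 and 11.6 CPM to 66.6, 66.4 and 62.0 CPM, and Gas5 from 95.2, 89.6 and 89.9 CPM to 200, 180 and 179 CPM. Snhg5 went down in every sample, from 57.1, 56.6 and 54.7 CPM to 38.4, 33.5 and 37.2 CPM (log2 fold change -0.58 ± 0.09). The response was smaller than in luciferase cells for 5 RNAs (16.3% of genes), by -1.15 ± 0.14 for Snhg12 to -2.25 ± 0.11 for Snhg1, and was not shown to differ for Snhg8 (-0.24 ± 0.20).

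Oligomycin still raised all 6 RNAs in LbNOX cells (17.5% of genes were called higher), by less than in luciferase cells. Gas5 reached 201, 207 and 193 CPM in LbNOX cells, and Snhg12 reached 29.3, 28.4 and 25.1 CPM. The log2 fold changes ran from 0.46 ± 0.08 for Snhg1 to 1.14 ± 0.06 for Gas5. The interaction was called for 5 of the 6 (4.18% of genes had a smaller response in LbNOX cells), with a log2 difference of -1.43 ± 0.14 for Snhg12, and was not called for Snhg8 (-0.34 ± 0.20).

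Chloramphenicol for 48 h raised 3 RNAs in luciferase cells, Gas5, Zfas1 and Snhg8 (4.83% of genes were called higher). Gas5 was at 79.5 and 75.3 CPM with DMSO and at 125 and 113 CPM with chloramphenicol (log2 fold change 0.67 ± 0.08, adjusted p = 0.0013). Zfas1 was at 58.1 and 61.9 CPM against 87.9 and 80.4 CPM, and Snhg8 at 16.1 and 16.2 CPM against 23.0 and 26.1 CPM. Snhg12 could not be called with 14.0 and 8.56 CPM in the control samples and 15 and 15.2 CPM in the treated ones. In LbNOX cells chloramphenicol raised none of the 6 by edgeR (0.675% of genes were called higher), none had an unadjusted p under 0.05 and none was called by DESeq2, with log2 fold changes from -0.10 ± 0.08 for Zfas1 to 0.15 ± 0.24 for Snhg12. The difference between the lines was called for Gas5 and Zfas1 (0.453% of genes had a smaller response), each at an adjusted p of 0.049, and neither call was kept with DESeq2 size factors or with the replicate number as a block.

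The hosts were lower in low-serum cells before any inhibitor was given, where stage cannot be told apart from transgene and doxycycline. In DMSO, all 6 RNAs were lower after 24 h in low serum than in luciferase myoblasts (32.3% of genes were called lower), and all 6 were lower in myotubes than in those myoblasts (33.7% of genes). Snhg5 had the largest of these differences, at 52.6, 47.2 and 48.0 CPM in myoblasts, 22.7, 24.8 and 19.8 CPM after 24 h and 18.5, 19.8 and 20.8 CPM in myotubes. From 24 h to 4 days, Gas5, Snhg1 and Zfas1 were called lower (16% of genes), with Gas5 going from 74.8, 69.1 and 65.6 CPM to 41.0, 52.0 and 55.9 CPM, and Snhg5, Snhg8 and Snhg12 were not, with log2 differences of -0.15 ± 0.09, -0.18 ± 0.19 and -0.35 ± 0.15. All 5 proliferation markers were also lower in both low-serum stages, and in these bulk samples fewer cells of a kind cannot be told from less RNA per cell.

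In cells 24 h in low serum, oligomycin raised all 6 RNAs (10.6% of genes were called higher) and piericidin raised Zfas1 (1.39% of genes), a call that needs all 3 replicates. Snhg12 was at 7.57, 9.46 and 7.38 CPM with DMSO, 28.0, 26.7 and 28.6 CPM with oligomycin and 10.4, 11 and 9.55 CPM with piericidin. The oligomycin samples were well apart from the rest, and the piericidin samples only just above the control. The log2 fold changes with oligomycin were 1.80 ± 0.12 for Snhg12, 1.65 ± 0.10 for Snhg5, 1.12 ± 0.12 for Snhg1, 1.07 ± 0.07 for Zfas1, 0.93 ± 0.06 for Gas5 and 0.72 ± 0.21 for Snhg8. With piericidin they ran from -0.08 ± 0.13 for Snhg1 to 0.35 ± 0.13 for Snhg12. Against luciferase myoblasts the piericidin response was smaller for 5 RNAs (21.2% of genes), by -0.53 ± 0.11 for Snhg5 to -2.78 ± 0.13 for Snhg1, and was not called for Snhg8 (-0.51 ± 0.25). The oligomycin response was smaller for Gas5, Snhg12 and Zfas1 (10.1% of genes), by -1.0 ± 0.10, -0.74 ± 0.17 and -0.59 ± 0.13.

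In myotubes oligomycin gave the highest mean of any single treatment for every RNA but Zfas1, which was highest with BAM15. It raised all 6 RNAs (16.9% of genes were called higher), while piericidin raised 4 (4.15% of genes) and antimycin 4 (6.64% of genes), in both cases Gas5, Snhg5, Snhg12 and Zfas1. Snhg12 went from 6.26, 5.68 and 6.70 CPM with DMSO to 29.6, 22.3 and 31.1 CPM with oligomycin, but to 12.2, 9.64 and 8.43 CPM with piericidin and 10.6, 12.1 and 11 CPM with antimycin. Snhg5 went from 18.5, 19.8 and 20.8 CPM to 62.8, 64.6 and 61.7 CPM with oligomycin and to 32.9, 25.6 and 28.9 CPM with piericidin. No treated group overlapped the DMSO samples for these RNAs. Snhg1, which electron transport inhibitors raised more than oligomycin did in myoblasts, was at 15.2, 14.2 and 13.2 CPM in untreated myotubes, 41.5, 37.6 and 40.6 CPM with oligomycin, 14.8, 14.3 and 18.3 CPM with piericidin and 14.9, 15.9 and 17.4 CPM with antimycin. Its log2 fold changes were 1.49 ± 0.13, 0.16 ± 0.14 and 0.18 ± 0.14. Leaving out every replicate 1 or every replicate 2 left 1 or 2 of the 4 piericidin calls.

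The change of response between stages was tested against luciferase myoblasts. The piericidin response was smaller in myotubes for Gas5, Snhg1, Snhg12 and Zfas1 (21.3% of genes had a smaller response), by -1.83 ± 0.13 to -2.54 ± 0.14 on the log2 scale, and was not called for Snhg5 (-0.28 ± 0.12) or Snhg8 (-0.43 ± 0.26). The antimycin response was smaller for 5 RNAs (22.5% of genes), with -2.74 ± 0.19 for Snhg12. The oligomycin response was smaller for Gas5 and Zfas1 only among the 6 (13.2% of genes), by -0.82 ± 0.10 and -0.62 ± 0.13. For Snhg1 and Snhg5 the oligomycin differences were 0.05 ± 0.13 and -0.07 ± 0.11.

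**Figure D3:**
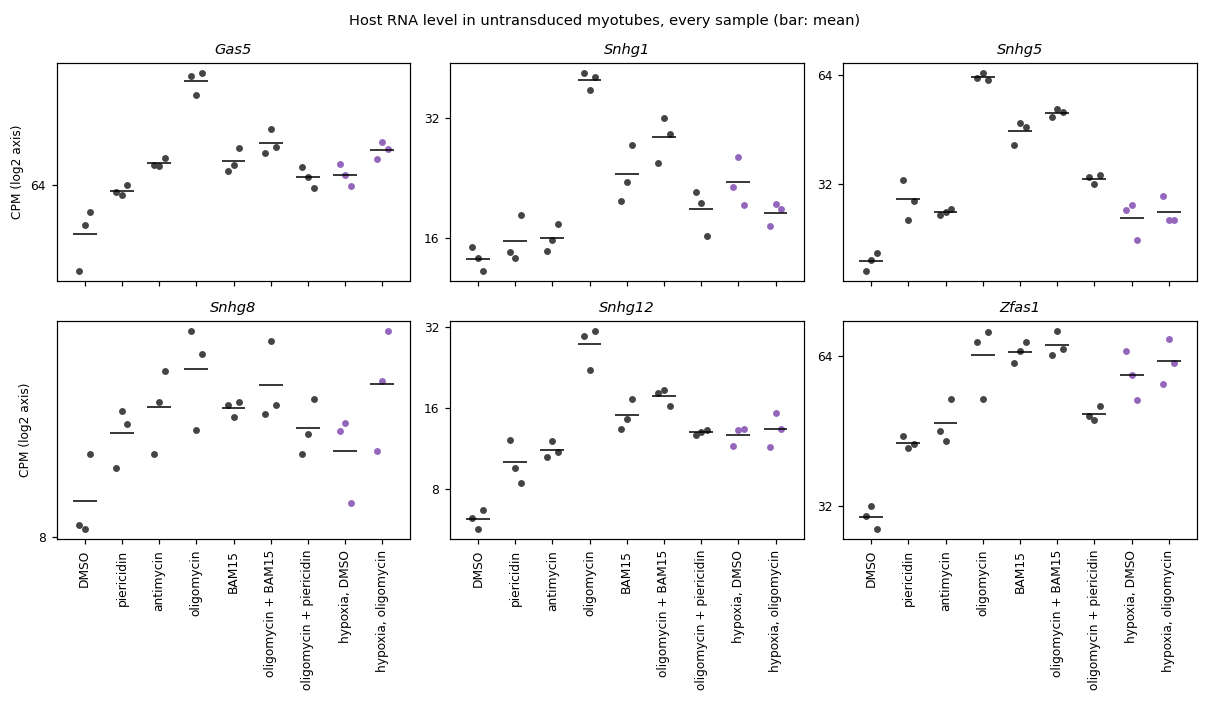
Level of each host RNA (CPM, log2 axis) in every untransduced myotube sample by treatment, with a bar at the mean; the hypoxic samples are purple. Oligomycin gives the highest mean in ambient oxygen for every RNA but Zfas1, and hypoxic samples with and without oligomycin overlap for every RNA but Gas5.

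BAM15, which lets protons back across the inner membrane, raised all 6 RNAs by itself (13.2% of genes were called higher), and all 6 were also raised by oligomycin with BAM15 (12.1% of genes). With BAM15 alone DESeq2 called 5, without Snhg8 (adjusted p = 0.076). Zfas1 was in the same range with BAM15, at 61.9, 65.4 and 68.1 CPM, as with oligomycin, at 68.4, 52.5 and 71.4 CPM, against 30.5, 32 and 28.7 CPM with DMSO. BAM15 added to oligomycin lowered Gas5, Snhg1, Snhg5 and Snhg12 relative to oligomycin alone (14.1% of genes were called lower), by -0.33 ± 0.08 for Snhg5 to -0.64 ± 0.13 for Snhg12 on the log2 scale. Zfas1 and Snhg8 were not called, at 0.07 ± 0.10 and -0.07 ± 0.15.

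Piericidin added to oligomycin lowered 5 RNAs relative to oligomycin alone (12.4% of genes), with Snhg5 at 33.6, 32 and 33.8 CPM, Snhg1 at 20.9, 19.6 and 16.2 CPM and Snhg12 at 12.7, 13 and 13.3 CPM. The log2 differences were -0.93 ± 0.08, -1.08 ± 0.13 and -1.09 ± 0.14, and Snhg8 was not called (-0.27 ± 0.15). Relative to DMSO, 5 RNAs were still higher with both drugs (5.83% of genes), from 0.41 ± 0.14 for Snhg1 to 1.07 ± 0.15 for Snhg12. Without every replicate 1, 3 of these 5 were called, and DESeq2 called 4, without Snhg1 (adjusted p = 0.051).

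Hypoxia alone raised 5 RNAs in myotubes (12.3% of genes were called higher), all but Snhg8. Zfas1 was at 65.4, 58.6 and 52.1 CPM and Snhg12 at 11.6, 13.3 and 13.4 CPM in hypoxia, each apart from its ambient control, with log2 fold changes of 0.95 ± 0.10 and 1.04 ± 0.15. Without every replicate 2, 3 of the 5 were called. Within hypoxia, oligomycin raised none of the 6 by edgeR (2.04% of genes were called higher), with 1 unadjusted p under 0.05 (Gas5) and no call by DESeq2. Snhg5 was at 27.2, 28.1 and 22.5 CPM in hypoxia and at 29.7, 25.5 and 25.5 CPM with oligomycin in hypoxia, and the groups overlapped. The log2 fold changes of oligomycin within hypoxia ran from -0.24 ± 0.13 for Snhg1 to 0.32 ± 0.15 for Snhg8. The interaction was called for 5 RNAs (9.56% of genes had a smaller response in hypoxia), by -0.95 ± 0.12 for Gas5 to -2.06 ± 0.20 for Snhg12. Against ambient DMSO, oligomycin in hypoxia left all 6 higher (10.6% of genes), of which DESeq2 called 5, without Snhg1 (adjusted p = 0.065). Against ambient oligomycin, hypoxia lowered Gas5, Snhg1, Snhg5 and Snhg12 (16.5% of genes). Zfas1 was not called there (-0.02 ± 0.10). All 5 proliferation markers were lower in hypoxia, beside 9.78% of all genes, with a median log2 fold change of -2.61, and their part in these values was not tested.

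In myotubes with an adenovirus, oligomycin raised all 6 RNAs with GFP (13.8% of genes were called higher) and with LbNOX (16.6% of genes). Snhg12 was at 6.4 and 7.40 CPM with GFP and DMSO and at 31.7 and 27.5 CPM with GFP and oligomycin. With LbNOX it was at 6.23, 6.66 and 4.42 CPM and at 24.8, 25.3 and 24.8 CPM. The log2 fold change was 2.09 in both, with SEs of 0.18 and 0.15. Piericidin raised Snhg5 with GFP (1.37% of genes), and Gas5 and Zfas1 with LbNOX (3.24% of genes), by 0.27 to 0.40 on the log2 scale. The LbNOX calls were not kept when any replicate number was left out, nor the GFP call without every replicate 3. Leaving out replicate 1 or 2 leaves 1 sample in each GFP group, which cannot test that call. The responses were not shown to differ between LbNOX and GFP, with log2 differences in the oligomycin response from -0.09 ± 0.12 for Snhg5 to 0.20 ± 0.15 for Zfas1 and, with piericidin, of -0.31 ± 0.12 for Snhg5 (adjusted p = 0.93).

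Across all 35 conditions, the highest mean of Gas5 and Zfas1 was that of luciferase myoblasts with piericidin, the highest mean of Snhg1 and Snhg12 that with antimycin, and the highest mean of Snhg5 and Snhg8 that with oligomycin. For Gas5 and Snhg1 the piericidin and antimycin means did not differ beyond their spread, nor for Snhg8 did those of oligomycin and antimycin. Snhg1, Snhg5 and Zfas1 were lowest in LbNOX myoblasts with antimycin, at means of 11.7, 8.70 and 21.5 CPM. Gas5 and Snhg12 were lowest in LbNOX myotubes with DMSO, at 46.8 and 5.77 CPM, and Snhg8 in untransduced myotubes with DMSO, at 8.97 CPM, values that overlap those of another DMSO myotube group. The highest mean was 24.7 times the lowest for Snhg12, 19.4 for Snhg1, 19.0 for Snhg5, 15.3 for Zfas1, 10.2 for Gas5 and 4.02 for Snhg8. Among pairs of the 6 RNAs, the correlation of condition means (log2 CPM) ran from 0.41 (Snhg5 with Snhg12) to 0.97 (Snhg1 with Zfas1) over the 13 myoblast conditions, with a median of 0.83, and from 0.68 to 0.96 over the 9 myotube conditions, with a median of 0.86. These conditions share their libraries and scaling.

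Of 15 other non-coding snoRNA hosts listed, 10 were tested in myoblasts. With piericidin in luciferase cells 5 were higher and 3 lower (median log2 fold change 0.55), beside 30.9% and 30.8% of all genes, with Snhg15 up by 2.31 ± 0.11 and Snhg17 by 1.89 ± 0.13, and Snhg18 down (-0.86 ± 0.27) with Snhg14 (-0.52 ± 0.15). With antimycin 5 were higher and 4 lower, beside 32.1% and 31.1% of all genes, with Snhg15 at 2.93 ± 0.11 and Snhg3 at -1.11 ± 0.19. With antimycin in LbNOX cells 1 was higher and 5 were lower, beside 23.3% and 22.9% of all genes, with a median of -0.47. Snhg4 was at -1.28 ± 0.10 and Snhg3 at -1.27 ± 0.19. In myotubes oligomycin raised 6 of 9, beside 16.9% of all genes, Snhg15 (1.76 ± 0.17) and Snhg17 (1.68 ± 0.18) among them.

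Of 15 protein-coding snoRNA hosts, 13 were higher and 1 lower with piericidin in luciferase cells (median 0.71), beside 30.9% and 30.8% of all genes, with the largest change in Nop56, a core protein of box C/D particles (1.88 ± 0.04), then in Eif4a2, a helicase of translation initiation (1.5 ± 0.06). The exception was Hspa8, a constitutive chaperone, at -1.19 ± 0.03. With antimycin in LbNOX cells 3 were higher and 11 lower, beside 23.3% and 22.9% of all genes, with Eif4a2 at -2.11 ± 0.06. In myotubes 12 of 15 were higher and 1 lower with oligomycin (16.9% and 16.4% of all genes), with Nop58 at 1.25 ± 0.05. With BAM15 4 were higher and 4 lower (13.2% and 12.2% of all genes). The snoRNP proteins, which package snoRNAs, were higher in 7 of 8 cases and lower in 1 with piericidin in luciferase cells, beside the same 30.9% and 30.8%, with Gar1, a core protein of box H/ACA particles, at 1.84. Nop56, Nop58 and Dkc1 are counted both here and among the coding hosts. With BAM15 in myotubes 4 of 7 were lower (12.2% of all genes were), among them Fbl, the methyltransferase of box C/D particles, at -1.05 ± 0.28.

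Most listed TOP mRNAs, of which Eef1b2, Eef2 and Rack1 are also counted among the coding hosts, rose in luciferase myoblasts, with smaller medians. Of 17, 16 were higher with piericidin, 16 with antimycin and 14 with oligomycin in luciferase cells, with medians of 0.45, 0.39 and 0.39. With antimycin 1 was lower, beside 31.1% of all genes. The shares of all genes called higher were 30.9%, 32.1% and 24.5%. The largest changes with piericidin were those of Eif3f, an initiation factor subunit (1.52 ± 0.50), and Npm1, a nucleolar chaperone (0.75 ± 0.03). Eif3f was at -1.04 ± 0.35 with oligomycin in myotubes, where 12 of 17 were higher and 1 lower, beside 16.9% and 16.4% of all genes. With antimycin in LbNOX cells 10 were higher and 3 lower (median 0.17), beside 23.3% and 22.9% of all genes, the opposite sign to the median of the 6 host RNAs, which was -0.88. In hypoxic myotubes 13 of 17 were higher and none was lower (median 0.21), beside 12.3% of all genes higher.

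**Figure D4:**
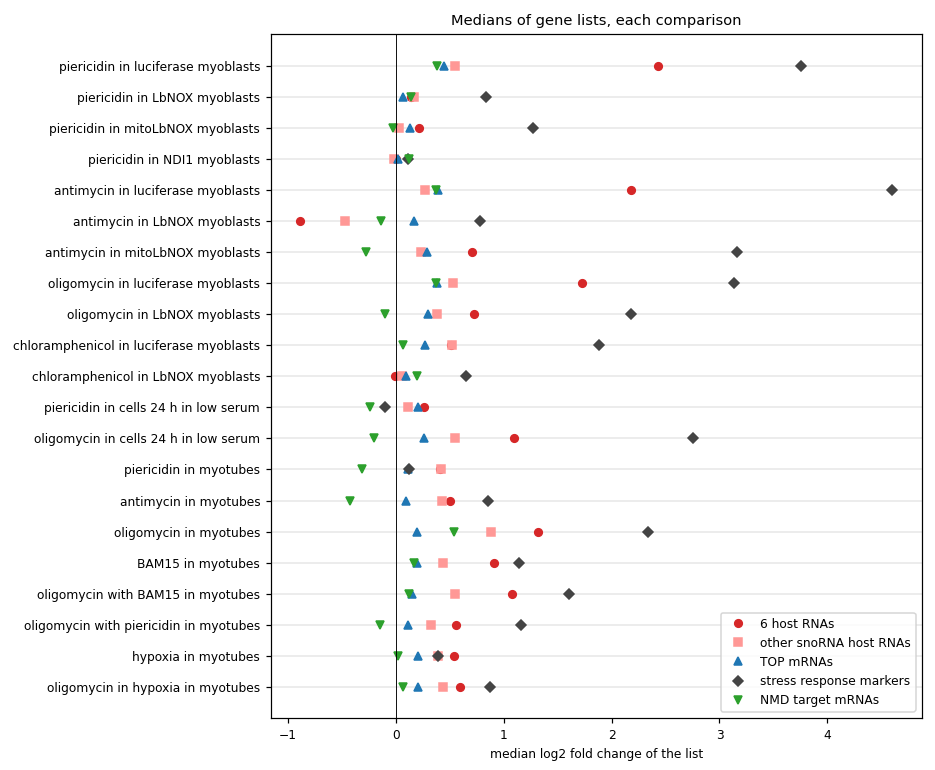
Median log2 fold change (horizontal axis) of the 6 host RNAs, other non-coding snoRNA hosts, TOP mRNAs, stress response markers and NMD target mRNAs in each treatment against its vehicle (vertical axis). The host RNA median is above 2 for piericidin and antimycin in luciferase myoblasts and is -0.88 for antimycin in LbNOX myoblasts, where the stress marker median is 0.78.

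Of 16 NMD and termination factors, 15 were higher with piericidin in luciferase myoblasts, with the largest changes in the release factor Etf1 (1.33 ± 0.13) and Smg5 (1.18 ± 0.38), 9 were higher and 1 lower with antimycin, and 5 were higher with oligomycin, beside 30.9%, 32.1% and 24.5% of all genes higher with these inhibitors. The share of all genes lower with antimycin was 31.1%. In myotubes oligomycin raised 3 and lowered 3, shares near those of all genes (16.9% and 16.4%), with Smg5 at -1.09 ± 0.30, and BAM15 lowered 6, beside 12.2% of all genes. Of 5 NMD target mRNAs (Gadd45a, Gadd45b, Tbl2, Upp1 and Atf4), which are also controlled by stress at transcription, 3 were higher and 1 lower with piericidin (30.9% and 30.8% of all genes), with Gadd45a, a stress-inducible growth arrest gene, at 6.21 and Atf4 at 2.39 on the log2 scale, and Upp1 at -0.65. With oligomycin in myotubes Atf4 (1.69) and Gadd45a (1.05) were higher, Gadd45b (-0.60) was lower, and Tbl2 and Upp1 were not called, at -0.15 and 0.54.

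Markers of the integrated stress response (Atf4, Ddit3, Atf3, Asns, Trib3, Chac1, Sesn2, Psat1, Ppp1r15a) were counted beside the hosts in 26 comparisons of a treatment with its control, some of which share control samples. In 11 of them all 6 hosts were higher, beside 10.6% to 32.1% of all genes, and all 9 markers were higher in 10 of these. The exception was BAM15 in myotubes, where 8 markers were higher and 1 lower (13.2% and 12.2% of all genes). In 12 comparisons some of the hosts were higher, and 0 to 9 markers were, beside 1.37% to 24.8% of all genes. With piericidin in myotubes 4 hosts and 3 markers were higher (4.15% of genes). With piericidin after 24 h in low serum 1 host was higher and no marker (1.39% of genes), with 2 markers lower (1.36% of genes). In the other 3 no host was higher, beside 0.00835% to 2.04% of all genes, and oligomycin within hypoxia left 8 markers higher there (2.04% of genes). The markers included the transcription factor Atf3, at 7.33 on the log2 scale, and Trib3, a pseudokinase that binds ATF4, at 5.26, both with piericidin in luciferase cells. With antimycin in LbNOX cells 7 of 9 were higher (23.3% of genes) and Atf4 itself was lower (-0.51 ± 0.03), where 4 of 6 hosts fell. With piericidin in LbNOX cells 8 of 9 markers were higher (median 0.84, beside 5.01% of genes), where 1 of 6 hosts was. In hypoxic myotubes 5 of 9 markers were higher and 1 lower (12.3% and 9.78% of genes) with a median of 0.39, Atf4 was at 0.02 and Asns, the asparagine synthetase, at -0.04, neither of them called, while 5 of 6 hosts were higher with a median of 0.54. No test of the difference between these lists was made.

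Neighbouring genes were checked because the counts do not use strand. The Snhg1 start lies 106 bases from Slc3a2, the heavy chain of amino acid transporters, which is on the other strand. Slc3a2 rose by 2.65 ± 0.04, 2.64 ± 0.04 and 2.14 ± 0.04 on the log2 scale with the 3 inhibitors in luciferase cells, beside 2.76, 2.83 and 1.45 for Snhg1. With antimycin in LbNOX cells they moved in opposite directions, Slc3a2 by 0.97 ± 0.04 and Snhg1 by -1.59 ± 0.09. Zfas1 overlaps Znfx1 on the other strand, a helicase gene that was lower with the same inhibitors, by -0.62 ± 0.10, -0.76 ± 0.10 and -0.51 ± 0.09, and that was not called with oligomycin in myotubes (0.19 ± 0.11). Gas5 overlaps Zbtb37 on the other strand, which was not called with any of these inhibitors. Trnau1ap, 739 bases from Snhg12, rose by 0.26 ± 0.10, 0.55 ± 0.10 and 0.40 ± 0.10. Prss12 beside Snhg8 did not pass the count filter in the fit of myoblasts alone. In the fit that joined the stages its piericidin response was smaller in myotubes than in luciferase myoblasts, by -1.69 ± 0.58 on the log2 scale (adjusted p = 0.018). Wdr74, on the same strand as Snhg1 and 9384 bases from it, rose by 1.60 ± 0.08, 1.38 ± 0.08 and 0.78 ± 0.08 with the 3 inhibitors. Ddx27, on the same strand as Zfas1 and 27987 bases from it, rose by 0.72 ± 0.05, 0.83 ± 0.05 and 0.93 ± 0.05. Syncrip, the nearest tested gene to Snhg5 at 38476 bases, was at 0.52 ± 0.06, 0.08 ± 0.06 and 0.27 ± 0.06. Reads shared between overlapping genes on opposite strands cannot be told apart here.

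None of these lists was fixed without knowledge of these data. The genes with condition means most like the mean of the 6 host RNAs were ranked by Pearson correlation, as a description. Over the 13 myoblast conditions and 9160 genes, the highest were Surf6, a nucleolar protein of ribosome assembly (r = 0.991), Sco1, a copper chaperone of cytochrome oxidase (0.988), the transcription factor Myc (0.987), Nob1, the nuclease that finishes 18S ribosomal RNA (0.984), and Hgh1 (0.982). Among the lowest were Ankrd9 (-0.981), Blvra, a biliverdin reductase (-0.977), Cdc45, part of the replication helicase (-0.977), and Trappc1 (-0.976). Over the 9 untransduced myotube conditions and 9609 genes, the highest were Eif4ebp1, a repressor of cap-dependent translation (0.990), Babam2 (0.979), Rusc2 (0.971), Nfx1 (0.964) and Serpinb6a (0.957), and the lowest were Snx7 (-0.975), Snn (-0.973), Eef1akmt1 (-0.970), Cobll1 (-0.965) and Acsl3 (-0.959). These conditions share their libraries within a stage.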

How the data were processed

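Polyadenylated RNA of 96 C2C12 cultures was sequenced as unstranded Smart-seq2 libraries on 2 flow cells. The authors estimated transcript abundance with kallisto 0.44 and deposited estimated counts per gene, not normalised and written as whole numbers. From these, genes reaching 16 counts in all replicates of some condition were tested with edgeR 4.0.16 (quasi-likelihood F test, TMM scaling, Benjamini-Hochberg adjustment within a comparison, threshold 0.05) in R 4.3.3. Myoblasts at 10 h, myoblasts at 48 h, myotubes, transduced myotubes and 24 h cells were fitted separately, and a further fit joined the stages. DESeq2 1.42.0, other scaling, no filter, fewer groups, well position, a replicate block and leaving out replicates were alternatives. On simulated data for piericidin in luciferase myoblasts (11616 genes), 99% of changes of 1 and 100% of changes of 2 on the log2 scale were recovered, and 7.01% of calls were false. The simulation changed 200 genes and gave every gene the same dispersion (spread beyond counting noise). In the real comparison 61.7% of genes were called, so these values do not give its error rate. The 6 RNAs and all gene lists were chosen with earlier results of these data known. Of other lists, up to 2 called genes a direction with the largest change are named. Other genes named, and the motif windows, were chosen after values or sequences were seen. Nothing states that replicates are separate biological experiments, so p-values measure the spread between cultures. Some genes that the naming rules cover are not reported here.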

Additional observations from a re-analysis of the deposited data

Results flagged for a closer look

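Of 17 differences in response tested between groups by edgeR with Benjamini-Hochberg adjustment, 13 that were called for at least 1 of the 6 host RNAs are given. Those between myotubes and cells 24 h in low serum were left out of this count and are not reported here. The share of all genes called in either direction stands beside each count. Against luciferase myoblasts, the piericidin response differed for all 6 RNAs with NDI1 (42.7% of genes), for 5 with LbNOX (44.3%) and for 5 with mitoLbNOX (42.8%). The antimycin response differed for 6 with LbNOX (51.5%) and for 5 with mitoLbNOX (31.7%), and the oligomycin response for 5 with LbNOX (7.98%). The chloramphenicol response differed for 2 with LbNOX (0.53%), and both calls were lost with the replicate block and with DESeq2 size factors. In myotubes the oligomycin response differed between hypoxia and ambient oxygen for 5 (17.4%). Stage cannot be told apart from transgene and doxycycline in the next values. Between cells 24 h in low serum and luciferase myoblasts the piericidin response differed for 5 (46.6%) and the oligomycin response for 3 (24.9%). Between myotubes and luciferase myoblasts the piericidin response differed for 4 (46.5%) and the antimycin response for 5 (47.9%). The oligomycin response differed for 2 there, a share of the 6 near that of all genes (29%).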

How the results depend on the processing

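No value called here or in an alternative run turned direction there. Sign changes of values called in neither were not counted. The number of RNAs higher with piericidin in LbNOX myoblasts went from 1 to 2 with DESeq2, to 0 with only the groups compared and down to 0 when a replicate was left out. In mitoLbNOX myoblasts it went from 3 to 1 when a replicate was left out. The NDI1 baseline call went from 1 to 0 with the replicate block, with only the groups compared and without every replicate 3. The RNAs lower with piericidin against oligomycin went from 2 to 1 without the count filter and when replicate 2 or 3 was left out. The chloramphenicol interaction went from 2 to 0 with DESeq2 size factors and with the replicate block. In myotubes, leaving out a replicate gave 1 to 4 higher with piericidin, as few as 3 with oligomycin and piericidin, and 3 to 5 in hypoxia. With GFP the 1 piericidin call went to 0 without the filter, with DESeq2, with only the groups compared and without every replicate 3. With LbNOX the 2 went to 1 without the filter, to 1 with only the groups compared and to 0 when a replicate was left out. After 24 h in low serum the 1 went to 0 when a replicate was left out. The cause was not tested, beyond the fewer samples that leaving out a replicate leaves. Deviations from the condition means correlated with a mean r of 0.041 between same-numbered samples and -0.021 between others in myoblasts at 10 h, and of -0.0094 and 0.0048 in myotubes. Cells 24 h in low serum gave 0.055 and -0.027. The numbers were not taken as pairing the samples, because not every pair was above 0.1. Noise in single pairs can also give that, so it cannot exclude pairing. With the replicate block 336 of 342 values for single RNAs kept their side of the threshold, 6 lost their call and no called value turned. Scaling by DESeq2 moved the median of all genes by at most 0.049. Depth limits Snhg8 and Snhg12, with as few as 62 and 40 counts.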
